A study of Mus musculus with 8 samples.

Results

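The mouse Serpina3 cluster is a run of serine protease inhibitor genes on chromosome 12 that descend from copies of a single ancestral gene. Of the 49315 gene identifiers in the count tables, 14 carry a Serpina3 symbol, and 6 of these are described here: Serpina3f, Serpina3g, Serpina3h, Serpina3i, Serpina3m and Serpina3n. The 6 were picked by name with the values of these same libraries in view, so their differences between the groups are a description; how many of them the fits over all genes called is printed beside the share of all genes called, and supports nothing. Serpins trap a target protease by offering it an exposed loop near the carboxy-terminal end of the protein, which the protease cleaves and is then bound to. Human SERPINA3, alpha-1-antichymotrypsin, is a plasma protein that liver releases in the acute-phase response, and in the mouse its single gene is matched by the whole cluster. Serpina3n, the best studied mouse copy, is secreted by liver, glia and other tissues in inflammation and inhibits granzyme B, cathepsin G and neutrophil elastase.

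RNA was measured in whole esophagus homogenates of wild-type (WT) mice. The SDS group consisted of 3 libraries from mice given 0.5% sodium dodecyl sulfate, an anionic household detergent, in the drinking water for 14 days, and the control group of 5 libraries from untreated mice at day 14. Strain, age and sex are not given by the labels. Nothing in the labels ties each library to its own animal, so p-values cover the spread between these libraries alone. The comparison asks what the detergent does to gene expression in the esophagus.

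Libraries held 24682611 to 26669024 counts in the SDS group and 22033866 to 29802362 counts in the control group, and 3 counts corresponded to 0.101 to 0.144 CPM (counts per 1000000). Across 17179 tested genes, 180 (1.05%) were called, with Benjamini-Hochberg adjusted p below 0.05 in edgeR quasi-likelihood tests. Of these 107 (0.623% of tested genes) were higher and 73 (0.425%) lower in SDS. SDS library 3 stood apart from the other SDS libraries: without it 1222 genes (6.92%) were called. Each result below is therefore given for that library as well. SDS library 3 was singled out on the values of these same libraries, so calls of the fit without it are a description. Leaving out any other single library gave 4 to 122 called genes. The keratinocyte marker list, led by Krt13 as in a squamous esophagus, summed to 93917, 96721 and 153812 CPM in SDS libraries and to 42989 to 138596 CPM in control libraries.

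The cluster spans 301.6 kb of chromosome 12 on mm10, from Serpina3a to Serpina3n, and the 6 members lie within 199.8 kb of it, all on the plus strand. In the deposited tables, which match GENCODE M21, Serpina3f (ENSMUSG00000066363) lies at 104214544 to 104221129, Serpina3g (ENSMUSG00000041481) at 104236245 to 104241939 and Serpina3h (ENSMUSG00000041449) at 104247905 to 104253669. Serpina3i (ENSMUSG00000079014) follows at 104263122 to 104269372, Serpina3m (ENSMUSG00000079012) at 104338486 to 104394257 and Serpina3n (ENSMUSG00000021091) at 104406729 to 104414329. All are annotated as protein-coding and counted over their exons, except Serpina3h, which is annotated as a transcribed unprocessed pseudogene. Serpina3m overlaps Serpina3k and Serpina3l-ps on the same strand.

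Serpina3n was the most abundant of the 14 paralogs per length of exon in each of the 8 libraries. It had 287, 423 and 21.0 CPM in SDS libraries 1, 2 and 3, against 22.0, 13.9, 14.8, 31.9 and 20.4 CPM in control libraries 1 to 5. SDS libraries 1 and 2 were high and SDS library 3 lay inside the control range, so the groups overlapped. The counts behind these levels were 7292, 12039 and 504 in SDS libraries and 288 to 945 in control libraries. The mean level was 244 ± 204 CPM in SDS and 20.6 ± 7.24 CPM in control (SD, n = 3 and n = 5), a fitted log2 fold change of 3.56 ± 0.72 (SE), or 11.8-fold. In whole tissue, more cells of a type and more RNA per cell cannot be told apart. Without SDS library 3 the log2 fold change of Serpina3n was 4.11 ± 0.31 (SE), and over 15 other settings it lay between 2.74 and 4.11.

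Serpina3m, the neighbour of Serpina3n, had far fewer counts and a similar profile. It measured 2.99, 4.74 and 0.417 CPM in SDS libraries, against 0.171, 0, 0.258, 0.237 and 0.534 CPM in control libraries. SDS libraries 1 and 2 were again high, and SDS library 3 lay below control library 5. The counts were 76, 135 and 10 in SDS libraries and 0 to 14 in control libraries, and the fitted log2 fold change was 3.45 ± 0.82 (SE). For every 1000 counts of Serpina3n there were 10.4, 11.2 and 19.8 counts of Serpina3m in SDS libraries and 7.74, 0, 17.5, 7.41 and 26.2 in control libraries, a ratio that overlapped between the groups.

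Serpina3g, known as Spi2A, is an intracellular inhibitor of lysosomal cathepsins studied mainly in leukocytes. Its levels were 1.18, 2.39 and 0.667 CPM in SDS libraries and 0.341, 0.481, 0.369, 0.507 and 0.191 CPM in control libraries. Every SDS library lay above every control library, and SDS library 3 was the lowest of the SDS group. The mean was 1.41 ± 0.884 CPM in SDS and 0.378 ± 0.126 CPM in control (SD, n = 3 and n = 5), a log2 fold change of 1.90 ± 0.45 (SE). Per 1000 counts of Serpina3n, Serpina3g gave 4.11, 5.65 and 31.7 counts in SDS libraries and 9.35 to 34.7 in control libraries. This ratio was low in the libraries where Serpina3n was high.

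Serpina3i stood at 0.668, 1.41 and 0.751 CPM in SDS libraries and at 0.683, 0.722, 0.185, 0.270 and 0.191 CPM in control libraries. SDS library 2 was the highest, SDS library 3 lay just above the highest control, and SDS library 1 lay below control libraries 1 and 2. The fitted log2 fold change was 1.21 ± 0.53 (SE). Its profile therefore differed from that of Serpina3n in SDS library 1, the library with the next highest Serpina3n.

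Serpina3h had 13, 18 and 8 counts in SDS libraries and 7, 4, 6, 0 and 6 counts in control libraries. The levels were 0.334 to 0.632 CPM in SDS and 0 to 0.239 CPM in control, with no overlap, and the means were 0.492 ± 0.150 CPM and 0.176 ± 0.10 CPM (SD, n = 3 and n = 5). It did not pass the filter on low counts. Serpina3f was at the edge of detection, with 0, 3 and 2 counts in SDS libraries and 0, 1, 1, 1 and 0 counts in control libraries. Both groups were at or under 3 counts per library, so no fold is given.

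**Figure D1:**
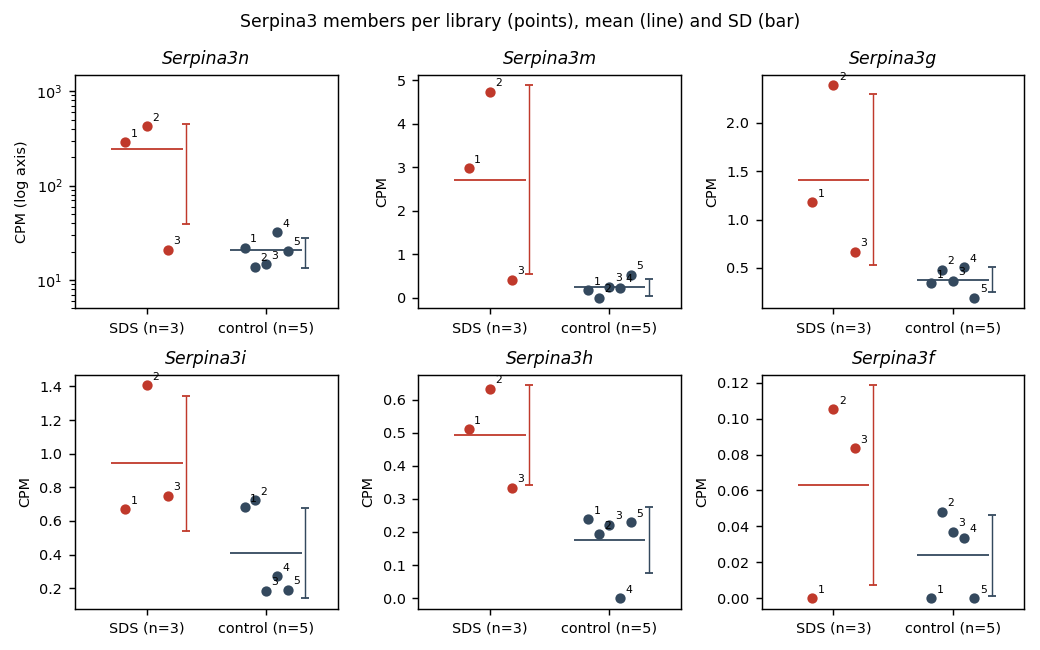
Levels of the 6 members in CPM, 1 point per numbered library, SDS on the left and control on the right of each panel; lines are means, bars are SDs and the Serpina3n axis is logarithmic. SDS library 3 sits among the controls for Serpina3n (21.0 CPM), while every SDS point lies above every control point for Serpina3g and Serpina3h.

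Serpina3g, Serpina3i, Serpina3m and Serpina3n passed the filter on low counts. None of these 4 was called by edgeR over all genes, where 1.05% of tested genes were called (0.623% higher in SDS). At an unadjusted p under 0.05 the number was 4 of 4, against 3180 of 17179 genes, and their median log2 fold change was 2.68, against -0.005 over all tested genes. DESeq2 called 3 of them, Serpina3g, Serpina3m and Serpina3n, where it called 9.76% of genes, and limma-voom called 0, with 0.71% of genes called. Without SDS library 3, edgeR called the same 3, with 6.92% of genes called. No member was called when any other single library was left out. Serpina3g was the single tested member with every SDS library above every control library, a pattern held by 6.49% of tested genes, while ranges did not overlap in either direction for 13.4%. The members were chosen on this contrast, so nothing is read from these counts.

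Summed over all 14 paralogs, the cluster gave 300.1, 433.7 and 31.0 CPM in SDS libraries and 32.7, 16.9, 16.2, 54.1 and 27.4 CPM in control libraries. The sum overlapped between the groups through SDS library 3, and its log2 fold change was 3.11 ± 0.71 (SE). The 5 members other than Serpina3n summed to 5.34, 9.28 and 2.25 CPM in SDS libraries and to 1.05 to 1.44 CPM in control libraries. These sums did not overlap. Among single tested genes, 6.49% had every SDS library above every control library. The 5 members were chosen on this contrast, and Serpina3f, Serpina3i and Serpina3m each overlapped on their own. Nothing is therefore read from the sums.

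Per kb of exon, Serpina3n reached 118 ± 99.0 CPM per kb in SDS and 9.99 ± 3.51 CPM per kb in control (SD, n = 3 and n = 5). The next members were Serpina3m with 1.58 in SDS and 0.140 in control, Serpina3g with 0.671 and 0.180, Serpina3i with 0.423 and 0.184 and Serpina3h with 0.343 and 0.123 CPM per kb, in the same order of groups. The levels of Serpina3m, Serpina3g, Serpina3i and Serpina3h overlapped within each group, so their order is not resolved in SDS or in control. Serpina3f was lowest, with 0.0275 CPM per kb in SDS and 0.0104 in control. Serpina3n made up 95.4, 97.3 and 67.9% of the summed per-kb level of the 14 paralogs in SDS libraries, against 67.9, 82.4, 90.6, 60.4 and 74.7% in control libraries.

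**Figure D2:**
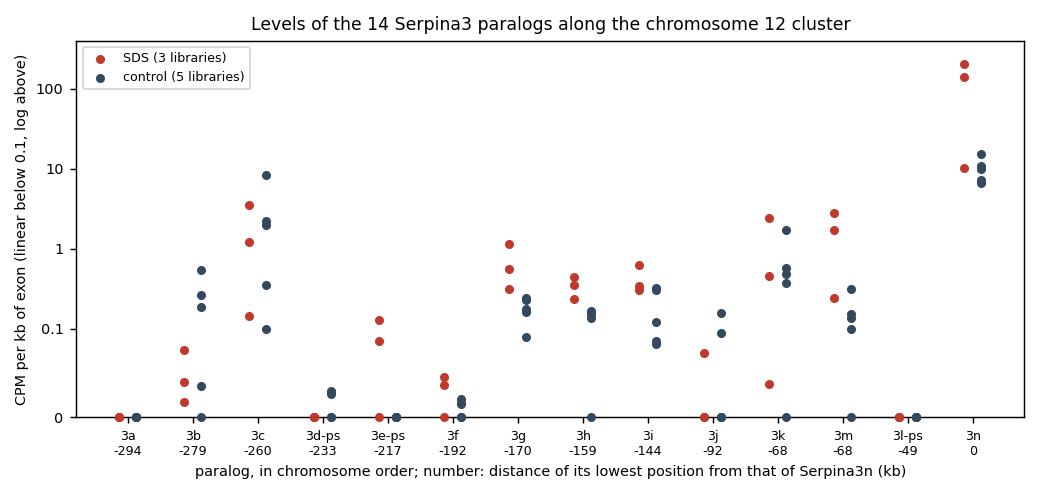
Level per kb of exon of each of the 14 paralogs, in chromosome order, with SDS points left of control points; the axis is linear below 0.1 and logarithmic above, and the number under each gene is its distance from Serpina3n in kb. Serpina3n is the highest gene at the right end, with means of 118 CPM per kb in SDS and 9.99 in control.

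The other 8 paralogs were low or differed in profile from Serpina3n. Serpina3c, on the minus strand at the far side of the cluster, measured 7.70, 0.316 and 2.67 CPM in SDS libraries and 4.95, 0.770, 0.222, 18.4 and 4.42 CPM in control libraries. Its log2 fold change was -0.70 ± 1.27 (SE, adjusted p = 0.815 by the edgeR quasi-likelihood test), and the library with the highest Serpina3n had almost the lowest Serpina3c. Serpina3k, the mouse contrapsin that liver secretes, measured 0.0786, 0.949 and 4.96 CPM in SDS libraries and 3.52, 0.770, 0, 1.18 and 0.992 CPM in control libraries (log2 0.61 ± 1.20 SE, adjusted p = 0.832 by edgeR). Serpina3b had 4, 1 and 2 counts in SDS libraries and 16, 0, 2, 33 and 10 counts in control libraries, which gave a log2 fold change of -2.21 (adjusted p = 0.352, edgeR). Serpina3e-ps had 4, 3 and 0 counts in SDS libraries and 0 in each control library, the same order of groups as Serpina3n on very few counts. Serpina3j had 4, 0 and 0 counts in SDS libraries and 0 to 10 in control libraries, Serpina3d-ps had 3 counts in all, and Serpina3a and Serpina3l-ps had none.

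Distance between profiles was measured as the root mean square (RMS) difference of log2 CPM, after centring each gene over the 8 libraries. To Serpina3n it was 0.76 for Serpina3m, 1.10 for Serpina3g, 1.51 for Serpina3i and 1.52 for Serpina3h. It was 1.95 for Serpina3j, 2.37 for Serpina3b, 2.72 for Serpina3c and 2.91 for Serpina3k. The members were chosen on these same libraries, so the order of these distances is a description of that choice, and the 8 points behind each distance share library and depth. Paralogs with under 15 counts, Serpina3e-ps and Serpina3f among them, have no distance.

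Markers of other cell types moved with several paralogs. Serpina3c followed the summed level of 11 adipocyte markers, which was 2081, 311 and 580 CPM in SDS libraries and 1915, 544, 363, 6803 and 1194 CPM in control libraries; the rank order of the libraries was the same but for the lowest pair. Serpina3k was highest in SDS library 3 and control library 1, the libraries highest in albumin (Alb), the main liver plasma protein. Alb had 0.393, 3.23 and 33 CPM in SDS libraries and 19.8, 2.21, 0.554, 0.406 and 2.71 CPM in control libraries. Control library 4 was an exception, with Serpina3k at 1.18 CPM and Alb at 0.406 CPM. For Serpina3n, the summed level of 12 macrophage and dendritic cell markers was 890, 1721 and 472 CPM in SDS libraries and 529, 345, 376, 553 and 495 CPM in control libraries. Its rank order was that of Serpina3n except that SDS library 3 and control library 5 changed places. The order was not particular to these markers among controls. The adipocyte sum and the endothelial sum (256, 162, 154, 318 and 197 CPM) shared the control order of Serpina3n except for libraries 2 and 3. The keratinocyte sum (75718, 116703, 138596, 42989 and 104359 CPM) had the reverse order except for the same libraries. None of the 12 macrophage and dendritic cell markers was at 0 in all libraries, 1 was called by edgeR and all 12 had a positive log2 fold change. The called gene was Cd207, the Langerhans cell lectin langerin (log2 3.59 ± 0.45 SE, adjusted p = 0.0240, edgeR); it lost its call in 6 of 15 alternatives, under the replicate block and without SDS library 2 or control library 1, 2, 3 or 5. Without SDS library 3 all 12 were called, in a fit that called 6.92% of all genes.

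**Figure D3:**
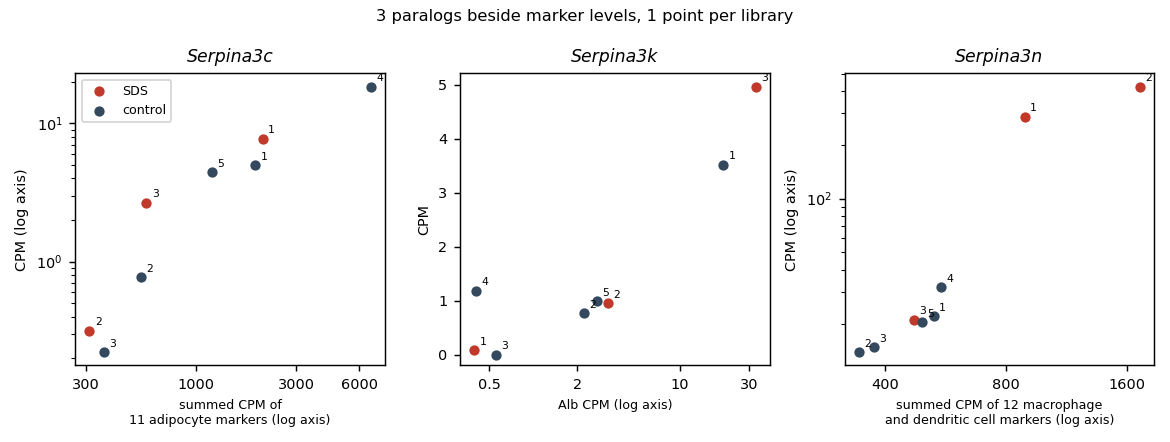
Serpina3c, Serpina3k and Serpina3n in CPM plotted against the marker level named on each horizontal axis, 1 numbered point per library, red for SDS and dark for control. Serpina3n is highest in SDS library 2 (423 CPM), which also has the highest macrophage and dendritic cell sum (1721 CPM).

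Marker sums of other cell types also differed between libraries, for some lists where Serpina3n was high and for others not. Both muscle sums were lowest in SDS library 3, where Serpina3n lay inside the control range. Neutrophil markers summed to 6133, 5813 and 214 CPM in SDS libraries and to 38.2 to 61.7 CPM in control libraries. S100a8 and S100a9, which keratinocytes also express, made up most of that sum and were the 2 called of 5 tested, with 4 at an unadjusted p under 0.05 and a median log2 fold change of 5.25. Csf3r, the receptor of the granulocyte growth factor G-CSF, had 22.8, 45.4 and 0.542 CPM in SDS libraries and 0.337 to 0.811 CPM in control libraries (log2 5.25 ± 0.99 SE, adjusted p = 0.0507, edgeR), high in the libraries where Serpina3n was high, and was called without SDS library 3 (log2 5.83). Ly6g was at most 0.105 CPM in SDS and 0 in every control library. T and NK cell markers summed to 24.4, 24.3 and 5.34 CPM in SDS libraries and to 2.44 to 6.32 CPM in control libraries, with Cd3d the 1 called of 6 tested. Fibroblast markers summed to 3169, 7171 and 1528 CPM in SDS libraries and to 2637 to 3514 CPM in control libraries, with 0 of 10 called by edgeR and 1 at an unadjusted p under 0.05. Of 12 keratinocyte markers edgeR called Krt14, the basal cell keratin (log2 2.55), and of 7 B and plasma cell markers Cd22 (3.8). Krt14 lost its call in 11 of 15 alternatives, S100a8 in 10 of 15, S100a9 in 7 of 15, and Cd3d and Cd22 in 9 of 14 each, all 5 among them without SDS library 1 or 2 or control library 1, 2, 3 or 5. The edgeR fit called 0 of 9 hepatocyte, 0 of 10 adipocyte and 0 of 8 endothelial markers. It also called 0 of 8 Schwann cell and nerve, 0 of 10 skeletal muscle and 0 of 8 smooth muscle markers. At an unadjusted p under 0.05 the numbers were 0, 0, 0, 1, 6 and 2 in that order. Over all tested genes the number was 3180 of 17179. Skeletal muscle markers summed to 24032, 19250 and 13192 CPM in SDS libraries and to 27434 to 37850 CPM in control libraries. These sums did not overlap. Among single tested genes, ranges did not overlap in either direction for 13.4%. Of the skeletal muscle markers 0 of 10 had a positive log2 fold change, with a median of -0.71. Smooth muscle markers summed to 4172, 2512 and 1966 CPM in SDS libraries and to 2961 to 8234 CPM in control libraries, with a median of -0.69. The part of these cell types in the Serpina3n level was not tested.

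The coding sequences of the members are close copies over most of their length and differ most in a short stretch near the end. Identity to Serpina3n over aligned coding bases was 85.2% for Serpina3m, 85.0% for Serpina3i, 84.6% for Serpina3f and 84.3% for Serpina3g, the last over 648 aligned bases because its annotated transcript has a shorter reading frame of 744 bases. Identity was averaged over the aligned members in each of 399 windows of 60 bases along the 1254 coding bases of Serpina3n. The median of these means was 88.3%. In windows where all 4 aligned, the highest mean was 97.5%. The lowest was 56.7%, at coding bases 1126 to 1185, which end 69 bases before the end of the stop codon. Nearer the start, at bases 67 to 126, Serpina3g had too few aligned bases and the mean of Serpina3f, Serpina3i and Serpina3m was 68.3%. The reactive loop of serpins lies near the carboxy-terminal end, but its position was not determined here. The window at bases 1126 to 1185 is shown because it had the lowest mean identity where all 4 aligned. Sequences are from GENCODE M21 transcripts read 5′ to 3′, with capitals at the bases that differ from Serpina3n in the alignment.
Serpina3n: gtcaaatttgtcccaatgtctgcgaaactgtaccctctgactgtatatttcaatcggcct
Serpina3m: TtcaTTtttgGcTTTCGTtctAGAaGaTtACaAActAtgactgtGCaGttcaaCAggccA
Serpina3g: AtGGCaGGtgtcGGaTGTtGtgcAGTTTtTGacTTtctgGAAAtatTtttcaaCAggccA
Serpina3i: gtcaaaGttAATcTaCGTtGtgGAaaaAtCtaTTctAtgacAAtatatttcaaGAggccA
Serpina3f: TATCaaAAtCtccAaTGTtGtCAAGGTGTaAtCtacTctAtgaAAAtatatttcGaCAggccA
Serpina3f differed at 31 bases, Serpina3g at 29, Serpina3m at 26 and Serpina3i at 21. The Serpina3f stretch held 63 bases against 60 in Serpina3n. Its inserted bases are counted among the 31, which is therefore not a count of substitutions alone.

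**Figure D4:**
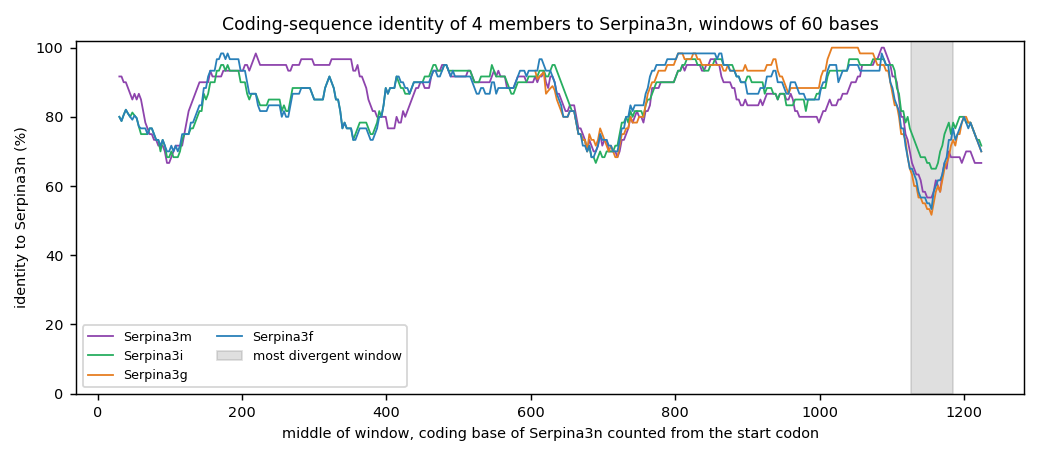
Identity of 4 members to Serpina3n in sliding windows of 60 coding bases, as a percentage, against the middle of the window; the Serpina3g line covers its shorter annotated frame. All 4 lines fall together in the grey window, where mean identity was 56.7% against a median of 88.3%.

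How far copies this alike can exchange reads was measured from their exon sequences. Of all 50-base windows of Serpina3n, 6.90% also occurred in another paralog, and of its 100-base windows 0.204% did. The shares at 50 bases were 19.1% for Serpina3m, 15.5% for Serpina3g, 21.9% for Serpina3h, 15.9% for Serpina3i and 10.6% for Serpina3f. At 100 bases they were 6.09% for Serpina3m, all with Serpina3k, 3.49% for Serpina3g, 3.60% for Serpina3h, 2.25% for Serpina3i and 3.4% for Serpina3f. Serpina3m shared 1.12% of its 50-base windows with Serpina3n and none of its 100-base windows. These shares were 2.33% and 0.0442% for Serpina3g, 0.917% and 0 for Serpina3f, and 0 at both lengths for Serpina3h and Serpina3i. Neither the read length nor the handling of reads that match several copies is stated in the labels, so the division of counts between these copies, above all Serpina3m and Serpina3k, is uncertain.

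The promoters of Serpina3n and Serpina3c, whose profiles over the libraries were 2.72 log2 units apart, are close copies. RefSeq windows on GRCm38.p6 from 250 bases before to 50 bases after the annotated start were at hand for 4 of the 6 members. The Serpina3n window lies at chr12:104406458-104406757 on the plus strand and that of Serpina3c at chr12:104153823-104154122 on the minus strand. Over 294 aligned bases they were 93.5% identical, against 68.0% for Serpina3n and Serpina3i, 64.6% for Serpina3n and Serpina3f and 61.2% for Serpina3n and Serpina3g. Serpina3f has 2 windows, and the value given is for the first. Its second window was 70.2% identical to that of Serpina3n over 198 aligned bases. The windows of Serpina3g (chr12:104235897-104236196, plus strand) and Serpina3i (chr12:104262872-104263171, plus strand) are shown for contrast. Capitals mark a match to the half-sites GNACA and TGTNC spaced by 3 bases, a glucocorticoid receptor type motif, or to TTCNNNGAA, a STAT type motif.
Serpina3n: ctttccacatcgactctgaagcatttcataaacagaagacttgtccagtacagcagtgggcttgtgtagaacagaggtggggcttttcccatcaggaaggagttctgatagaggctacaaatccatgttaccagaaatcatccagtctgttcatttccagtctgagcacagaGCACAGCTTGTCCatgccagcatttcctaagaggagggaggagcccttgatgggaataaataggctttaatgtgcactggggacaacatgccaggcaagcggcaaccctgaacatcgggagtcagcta
Serpina3c: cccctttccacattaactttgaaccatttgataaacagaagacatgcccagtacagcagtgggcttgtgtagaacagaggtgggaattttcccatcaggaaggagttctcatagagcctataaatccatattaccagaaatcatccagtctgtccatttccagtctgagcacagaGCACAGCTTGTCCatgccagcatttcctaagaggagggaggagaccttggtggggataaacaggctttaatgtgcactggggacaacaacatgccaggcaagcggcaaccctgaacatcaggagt
Serpina3g: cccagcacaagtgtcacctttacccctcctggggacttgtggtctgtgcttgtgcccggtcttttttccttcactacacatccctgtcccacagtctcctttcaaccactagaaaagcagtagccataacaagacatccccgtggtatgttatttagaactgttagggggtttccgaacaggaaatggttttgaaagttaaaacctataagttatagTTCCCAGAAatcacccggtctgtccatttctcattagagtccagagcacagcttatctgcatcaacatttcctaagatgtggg
Serpina3i: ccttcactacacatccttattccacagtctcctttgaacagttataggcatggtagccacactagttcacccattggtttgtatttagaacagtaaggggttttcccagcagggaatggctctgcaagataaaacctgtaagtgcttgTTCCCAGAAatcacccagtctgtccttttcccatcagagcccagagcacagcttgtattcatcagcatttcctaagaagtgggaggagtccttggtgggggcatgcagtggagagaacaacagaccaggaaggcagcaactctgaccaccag
The paired half-sites matched Serpina3n at -78 to -66 and Serpina3c at -75 to -63 counted from the annotated start, with the same letters, and was found in 0.475% of 32851 RefSeq promoter windows searched on both strands. The motif TTCNNNGAA matched Serpina3g at -33 to -25, Serpina3i at -102 to -94 and Serpina3f at -121 to -113, and was found in 8.30% of windows. In the second window of Serpina3f the match lay at -210 to -202. No match of these motifs overlapped a match of another motif searched. A match describes letters only.

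The acute-phase list was examined because human SERPINA3 belongs to that response. Of its 25 genes 13 were tested, 2 were called higher and 0 lower by edgeR, and 11 had a positive log2 fold change, with a median of 0.91 against -0.005 over all tested genes. Saa3, the serum amyloid A made outside the liver, had 28.6, 130 and 4.46 CPM in SDS libraries and 0.137, 0.0963, 0.332, 1.25 and 0.267 CPM in control libraries (log2 6.96 ± 1.10 SE, adjusted p = 0.0355, edgeR). Lcn2, the iron-siderophore binding lipocalin 2, had 72.3, 82.8 and 4.63 CPM in SDS libraries and 1.37 to 1.75 CPM in control libraries (log2 5.08 ± 0.73 SE, adjusted p = 0.0303, edgeR). Both lost their call in 9 of 15 alternatives, among them limma-voom and the fits without SDS library 1 or 2 or control library 1, 2, 3 or 5, with log2 fold changes of 5.26 to 7.99 for Saa3 and 4.29 to 5.63 for Lcn2 over all 15. Both genes shared the order of SDS libraries with Serpina3n, but in SDS library 3 they stood 3.62 and 1.52 log2 units above the control mean, where Serpina3n stood 0.09 above it. In SDS libraries 1 and 2 Serpina3n stood 3.86 and 4.42 above its control mean, Saa3 6.28 and 8.46, and Lcn2 5.46 and 5.66. Complement C3 measured 1139, 1613 and 182 CPM in SDS libraries and 234 to 832 CPM in control libraries (log2 1.12, adjusted p = 0.387, edgeR).

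**Figure D5:**
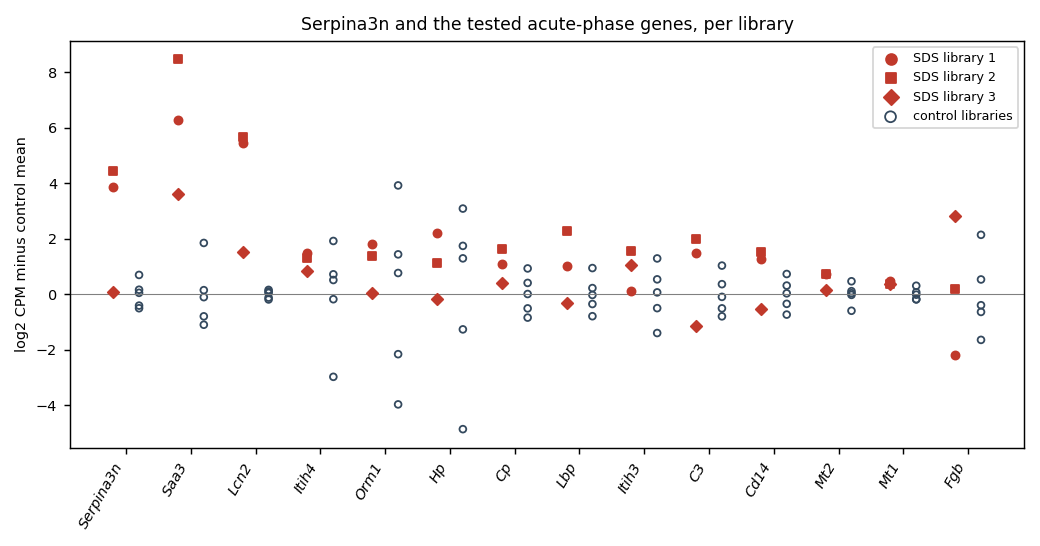
Serpina3n and the 13 tested acute-phase genes as log2 CPM minus the mean of the control libraries, 1 point per library, filled for SDS and open for control. In SDS library 3 (diamonds) Serpina3n lies at 0.09, while Saa3 and Lcn2 lie at 3.62 and 1.52.

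Of the proteases examined as targets of Serpina3 proteins, granzyme B, cathepsin G and neutrophil elastase were low. The list also held lysosomal cathepsins, with Ctsd the highest gene of the list. Granzyme B (Gzmb), the cytotoxic lymphocyte protease, had 0.511, 0.632 and 0.167 CPM in SDS libraries and 0 to 0.169 CPM in control libraries, and was not tested because of its low counts. Cathepsin G (Ctsg) was at most 0.176 CPM in SDS and 0.203 CPM in control libraries, and neutrophil elastase (Elane) at most 0.157 CPM in SDS and 0.135 CPM in control libraries, with 13 and 10 counts in all 8 libraries together. Of 9 tested proteases edgeR called 0, with 3 at an unadjusted p under 0.05 and a median log2 fold change of 0.34; DESeq2 called 2 and limma-voom 0. The lysosomal cathepsin Ctss, a cysteine protease of antigen-presenting cells, measured 71.6, 168 and 26.3 CPM in SDS libraries and 17.3 to 31.3 CPM in control libraries (log2 1.87, adjusted p = 0.0951, edgeR). Without SDS library 3, where 6.92% of all genes were called, Ctss (log2 2.32) and Ctsc (1.49) were called, as was Serpina3n.

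Signals known to drive Serpina3 genes in other tissues were examined with lists of their pathway genes. Of 18 tested genes of the gp130 and STAT3 pathway, which interleukin 6 family cytokines use, edgeR called 0, with 1 at an unadjusted p under 0.05 and a median log2 fold change of 0.07; DESeq2 called 1 and limma-voom 0. Il6 itself was at most 0.0703 CPM in SDS and 0.137 CPM in control libraries, Stat3 had a log2 fold change of 0.04 (adjusted p = 0.883, edgeR) and Socs3 of 0.09 (adjusted p = 0.872, edgeR). Of 20 tested genes of the NF-kB and interleukin 1 pathway 1 was called higher and 0 lower, with a median of 0.41. It was Nfkbiz, an NF-kB cofactor, with 108, 115 and 91.1 CPM in SDS libraries and 26.0 to 56.9 CPM in control libraries (log2 1.36 ± 0.24 SE, adjusted p = 0.0470, edgeR). It lost its call in 8 of 15 alternatives, with limma-voom, the replicate block and without SDS library 1 or 2 or control library 1, 2, 3 or 5 (log2 1.25 to 1.51). Unlike Serpina3n, Nfkbiz was high in SDS library 3.

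Of 23 tested interferon response genes edgeR called 0, with 3 at an unadjusted p under 0.05 and a median of 0.44, and of 12 glucocorticoid response genes 0, with 4 and a median of -0.13. Of 4 tested clade A serpin neighbours on the same chromosome 0 were called, with 1 at an unadjusted p under 0.05 and a median of 1.01. DESeq2 called 2, 1 and 1 in these lists, and limma-voom 0 in each. The clade A neighbour Serpina9 had 87.9, 93.5 and 139 CPM in SDS libraries and 52.4 to 74.6 CPM in control libraries (log2 0.73, adjusted p = 0.0926, edgeR), highest in the SDS library where Serpina3n was lowest. Without SDS library 3 edgeR called 3 genes higher in the gp130 and STAT3 list, Osm (log2 2.51), Osmr (0.69) and Cebpd (1.07); 2 interferon response genes, Irf8 (1.90) and Ciita (2.09); and 5 NF-kB and interleukin 1 genes, among them Il1b (3.64). It called 0 in the glucocorticoid and clade A lists. In that fit 6.92% of all genes were called.

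The genes most like each tested member in profile were sought among 13810 genes with at least 1 CPM in a group, by the RMS difference over the 8 libraries. Serpina3n was nearest to Zap70, a T cell receptor kinase (0.37), Il1b, the interleukin 1 beta cytokine (0.39), and Trim30b (0.42). Zap70 had 3.5, 3.27 and 0.250 CPM in SDS libraries and 0.111 to 0.406 CPM in control libraries, and Il1b had 10.7, 12.7 and 0.876 CPM in SDS libraries and 0.512 to 1.76 CPM in control libraries. In both, as in Serpina3n, SDS library 3 lay inside the control range. Serpina3m was nearest to Lat, Clec4d and Cd244a (0.57 each), all genes of immune cells. Serpina3g was nearest to Haspin (0.24), Plxnc1 (0.26) and Bcl2a1d (0.28). Serpina3i was nearest to the immunoglobulin gene Igkc (0.39), to Spc25 (0.39) and to Jchain (0.42). The centred profiles themselves had an RMS of 1.82 for Serpina3n, 1.83 for Serpina3m, 0.94 for Serpina3g and 0.85 for Serpina3i. Serpina3m, Serpina3g and Serpina3i rest on low counts, and the cells behind these profiles were not tested.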

How the data were processed

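Whole esophagus RNA of 8 libraries (3 SDS, 5 control) was grouped by the treatment in the labels. The authors deposited 1 table of raw counts per library, each over 49315 Ensembl gene identifiers. Per the labels' protocols, poly(A)-selected total RNA was converted to libraries by the NEBNext Ultra II RNA kit; the extraction text names cell pellets, while the treatment text names whole esophagus. STAR 2.6.1c, Subread, bcl2fastq, FastQC and the build mm10 are named, per the submitters' processing notes. The sources used here give no strand setting, read length or handling of multiply matching reads.

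Symbols matched 48970 identifiers. The filter filterByExpr (minimum count 10, minimum total 15) of edgeR 4.0.16 in R 4.3.3 was applied, and the counts were scaled by TMM and tested two-sided with a robust quasi-likelihood fit (glmQLFit, glmQLFTest) and Benjamini-Hochberg adjustment at 0.05 over 17179 genes. Standard errors (SE) were taken as log2 fold change over the root of F. CPM used TMM-scaled library sizes, and log2 CPM a prior count of 2. The common BCV (biological coefficient of variation) came to 29.3%, and within a group the chi-square of library pairs was at least 24.2 per degree of freedom, so none were copies. Coding sequences (GENCODE M21) and promoters (RefSeq, GRCm38.p6) were aligned with mafft 7.526. The procedure was tested on simulated data.

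The members, gene lists, motifs and alternatives were chosen with earlier results of these data known. Named were the members, the other Serpina3 genes, up to 4 called genes per list by smallest p, Saa3, Lcn2, Il6, Stat3, Socs3, Gzmb, Ctsg, Elane and Alb, and the 3 genes most like each tested member, without predicted genes; other names were chosen after their values were seen. Alternatives were other scalings (RLE, upper quartile), no filter, 1 CPM in 3 libraries, DESeq2 1.42.0, limma-voom (limma 3.58.1), a replicate block, unscaled library sizes for levels, and each library left out. The ratio of each paralog to Serpina3n counts was added after seeing the data.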

Additional observations from a re-analysis of the deposited data

Results flagged for a closer look

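In 9 of 39 groups of 5 control libraries checked (23.1%), the highest or lowest value lay apart from the other 4 by more than 0.71 of the range; chance gives about 1 in 20 groups. The genes of a library vary together, so these are not 9 separate events. Among the Serpina3 genes, Serpina3h had 0 CPM in control library 4, next to 0.193 CPM in the nearest control, with 62 counts in all 8 libraries. Serpina3c had 18.4 CPM in control library 4, next to 4.95 CPM. Control library 4 also held the extreme values of Saa3 (1.25 CPM, nearest 0.332), Cd3d (0.237 CPM, nearest 0.0683), Ctsg (0.203 CPM, nearest 0.0381) and Elane (0.135 CPM, nearest 0.0341). Control library 1 held those of Alb (19.8 CPM, nearest 2.71) and Il6 (0.137 CPM, nearest 0.0338), and control library 2 that of Igkc (7.56 CPM, nearest 3.52). Ctsg, Elane and Il6 had 13, 10 and 8 counts in all libraries.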

How the results depend on the processing

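The log2 fold changes of the 4 tested members were positive under each of the 15 alternatives that kept them: 0.80 to 1.51 for Serpina3i, 1.28 to 2.24 for Serpina3g, 2.78 to 3.97 for Serpina3m and 2.74 to 4.11 for Serpina3n. A filter of 1 CPM in 3 libraries kept only Serpina3n. The 12 mean levels over unscaled library sizes moved by at most 4.95%, each within 1 SD.

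Of the counts of calls, DESeq2 gave 1610 of all genes, 3 members, 5 NF-kB and interleukin 1 genes, 2 proteases, 2 interferon response genes and 1 each of the gp130 and STAT3, glucocorticoid and clade A lists; its summed cluster log2 fold change was 3.12. No filter gave 1 gp130 and STAT3 gene and 0 acute-phase genes, limma-voom gave 0 acute-phase and 0 NF-kB genes, and the replicate block gave 0 in both and 0 of all genes. Leaving out 1 library each gave 4 to 1222 genes, 0 to 3 members, 0 to 4 acute-phase, 0 to 3 gp130 and STAT3, 0 to 2 protease, 0 to 2 interferon and 0 to 5 NF-kB calls, and a summed log2 fold change of 2.49 to 3.65. The count over all genes was 4, 7, 18, 122 and 10 without control library 1 to 5 and 56, 4 and 1222 without SDS library 1 to 3. The replicate numbers were not taken as pairs. Deviations of same-numbered libraries correlated at 0.31, -0.01 and 0.31. Differently numbered libraries were not compared, so these values cannot decide whether the numbers mark pairs.

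Signs reversed for Alb at -1.48 without SDS library 3, Stat3 at -0.058 without SDS library 2, and Socs3 at -0.073 under the replicate block, -0.01 without control library 4 and -0.12 without SDS library 2. With 1 library left out, Alb ranged from -1.48 to 3.08, Stat3 from -0.058 to 0.16 and Socs3 from -0.12 to 0.30. The cause was not tested. With 3 SDS libraries, 1 of them inside the control range for Serpina3n, the size of its difference is not well determined, and Serpina3f and Serpina3h are limited by their counts.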

Other observations

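Serpina3 ratios gave a view of the cluster that does not depend on scaling. Per 1000 counts of Serpina3n, Serpina3i had 2.33, 3.32 and 35.7 counts in SDS libraries and 31.0, 52.1, 12.5, 8.47 and 9.35 in control libraries. Serpina3c had 26.9, 0.748 and 127 counts per 1000 of Serpina3n in SDS libraries, against 224, 55.6, 15, 577 and 217 in control libraries. In both, SDS library 3 lay inside the control range and SDS library 2 below it.

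Saa1, a serum amyloid A gene that did not pass the filter on low counts, had 9.55, 14.8 and 0.167 CPM in SDS libraries and 0.0338 to 0.114 CPM in control libraries. As with Serpina3n, SDS libraries 1 and 2 were high. Within coding sequence, Serpina3m was closer to Serpina3k (91.7% identity) than to Serpina3n (85.2%), and Serpina3f was closest to Serpina3i (91.2%).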
